A study of Homo sapiens with 2 samples.

Results

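The mRNA levels of the core splicing factor genes were compared between NCI-H460 cells given an siRNA against CYP4F11 and control cells. The genes were the protein-coding rows of the deposited count table whose symbols begin with SRSF, HNRNP, SF3A, SF3B, U2AF or SNRP. This rule found 64 of 58735 gene rows, and U2AF1 and its duplicate entry U2AF1L5 were added together, which left 63. The rule used names only and no measured value. Of the 63, 57 averaged 1 CPM or more over both libraries (CPM normalises each count to its library's scaled total) and are called measured here. The other 6 were SRSF12, with 6 and 2 counts in siControl and siCYP4F11, HNRNPCL2, with 0 and 1, and HNRNPCL1, HNRNPCL3, HNRNPCL4 and HNRNPUL2-BSCL2, with 0 in both. For reads placed at the entry, a count of 0 allows a level of up to 0.186 CPM in siControl and 0.230 CPM in siCYP4F11 by the limit of 3 counts. HNRNPCL1, HNRNPCL3, HNRNPCL4 and HNRNPUL2-BSCL2 share 58.7%, 80.2%, 94% and 98.8% of their 50-base stretches with other genes. Reads that match more than 1 gene may be missing from their counts, so this limit may not hold for their levels.

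NCI-H460 is a human large cell lung carcinoma line, here wild type or with CYP4F11 knocked down for 24 h. Both groups went through Lipofectamine RNAiMAX transfection. The control is labelled siControl and as lacking the CYP4F11 siRNA, and no control sequence is named. The design text names the line NCI-H469, and the name in the sample labels was followed. Each group was 1 library, so every ratio below compares these libraries and has no replicate check, test or p-value. Both carry the same batch label. Intervals cover counting error only, because 1 library per group gives no spread between samples. Reads that carry no molecular identifier cannot be taken as separate molecules, so the counting error itself may be larger than the intervals show. In bulk RNA, a lower level in every cell and a full level in fewer cells cannot be told apart.

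Introns are removed from pre-mRNA by the spliceosome, which is built on each intron from small nuclear ribonucleoproteins (snRNPs). U1 snRNP marks the 5′ splice site. The U2AF dimer reads the pyrimidine tract and the AG at the 3′ splice site, and U2 snRNP with its SF3A and SF3B subcomplexes pairs with the branch site. SR proteins bind exons and help recruit these factors, while many hnRNP proteins coat nascent RNA and can oppose exon inclusion. Several of these genes, U2AF1 and SF3B1 among them, carry recurrent mutations in cancers, which gene counts do not show.

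The libraries held 16207785 counts in siControl and 13002179 in siCYP4F11. CYP4F11, the siRNA target, which encodes a fatty acid omega-hydroxylase, had 3180 and 972 counts, 197 and 74.5 CPM, so it was 62.2% lower in the library labelled siCYP4F11. The epithelial keratins KRT8, KRT18 and KRT19 were high in both libraries, whereas EPCAM had 6 and 8 counts and CDH1 1 and 0, so 3 of 5 epithelial markers were measured. Of markers of other cell types, 1 of 5 leukocyte genes, 0 of 4 endothelial genes and 1 of 6 alveolar and airway genes were measured. PTPRC, CD3E, PECAM1, VWF and CDH5 had 0 counts in both. All 4 fibroblast markers were measured, with levels that sum to 21.1 CPM in the control and 29.8 CPM in the knockdown, and their part in the differences below was not tested.

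By the counts, U2AF1 is the member whose level differed most, and its value depends on how reads are shared with U2AF1L5. On GRCh38, U2AF1 lies on the minus strand at chr21:43092956-43107587 and U2AF1L5 on the minus strand at chr21:6484623-6499261, and U2AF1L5 is known as a duplicate of U2AF1 in that assembly. In GENCODE release 29 each entry has 12 transcripts, and 11103 of the 11112 exonic positions of U2AF1 could be aligned to U2AF1L5. Only 12 of these aligned positions differed, an identity of 99.892%, and the 790 coding positions held 0 differences. Of the 12, 3 lie in transcripts annotated as protein-coding, outside the coding sequence, and 9 lie only in retained-intron transcripts. The sequences below show a few of the positions by which a read can be placed at 1 copy. Each is 29 bases, 5′ to 3′ on the transcript strand, with the differing base in capitals at position 15 counted from the 5′ end. The first 2 pairs are in protein-coding transcripts of U2AF1 (A15C and G15C, U2AF1 base first) and the last is in a retained intron (A15G).
U2AF1, chr21:43107545-43107573: ggtgacgtctcccgAgggcgtcggcaggg
U2AF1L5, chr21:6499223-6499251: ggtgacgtctcccgCgggcgtcggcaggg
U2AF1, chr21:43104776-43104804: ctcaccacaccggtGttttcaagagagaa
U2AF1L5, chr21:6496454-6496482: ctcaccacaccggtCttttcaagagagaa
U2AF1, chr21:43095561-43095589: aatgacactttgtaAtgtataacgagtct
U2AF1L5, chr21:6487230-6487258: aatgacactttgtaGtgtataacgagtct

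The splicing factor genes as a group sat at the same level in both libraries. They took 1.46% of all counts in each. The median log2 ratio of siCYP4F11 over siControl was 0.01 over the 57 measured members and -0.005 over all 13941 measured genes. Of the 57, 31 were above 0 and 26 below, where 49.2% of all measured genes were above and 50.8% below. Of the same 57, 50 lay within 0.25 of 0 and 56 within 0.5. Among well-expressed genes (mean CPM 50 or more), the SD of the log2 ratios was 0.162 over 50 members and 0.193 over 4329 genes. That filter leaves out the U2AF1 pair. Without the filter the SD was 0.200 over the 57 members and 0.354 over the 13941 measured genes.

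No member differed by 2-fold with a counting interval that excluded 0, where 0.703% of measured genes were higher and 1.25% lower by that rule. The U2AF1 pair lay close to that limit, and with the GC correction described below it was lower by the 2-fold rule. At 1.5-fold (a log2 ratio of 0.585), 0 members were higher and 1 was lower, the U2AF1 pair, where 2.04% of measured genes were higher and 3.44% lower. By the counting interval alone 14 members were higher, 18 lower and 25 within counting error, against 18.6% and 19.2% of all measured genes and 20.2% and 20.3% of protein-coding ones. That share depends on depth, so it was also taken among the well-expressed genes. There 14 of 50 members (28%) were higher and 17 (34%) lower, against 29.2% and 29.1% of genes at that level, which is near the background. The ratios were related to transcript GC content, described below, and a correction for it gave 10 higher and 20 lower of the 57. It ended 9 calls, made 8 new ones and reversed the sign of 2 other called members. Of those 2, HNRNPC became lower beyond counting error and SNRPF fell within it. The corrected value is given beside the members concerned. The range of levels in both libraries is shown in the plot of CPM.

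**Figure D1:**
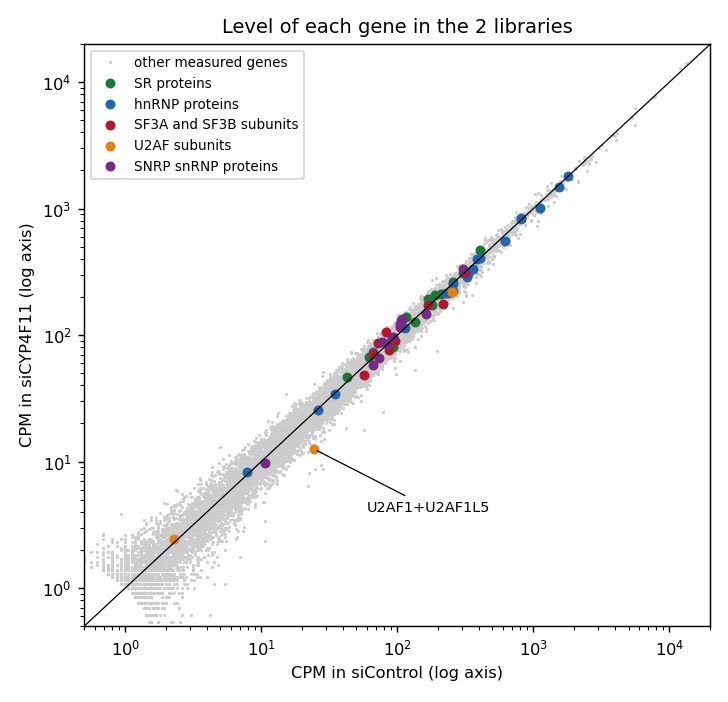
Level of each measured gene in CPM in siControl (x axis) and siCYP4F11 (y axis), both on log axes that start at 0.5 CPM, with the line of equal level. Grey points are other measured genes and coloured points are the 57 measured members by family. The members follow the line from U2AF1L4 at 2.29 and 2.45 CPM to HNRNPA1 at 1783 and 1794 CPM, and the U2AF1 pair lies below it.

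The members differ widely in abundance. Per length, in TPM (transcript level scaled for gene length and library size) computed from the counts and the deposited gene lengths, HNRNPA1 had the highest level, at 1116 in siControl and 1118 in siCYP4F11. SNRPB followed at 754 and 833, HNRNPAB at 538 and 496, HNRNPA2B1 at 527 and 510, and HNRNPK at 509 and 511. HNRNPAB, HNRNPA2B1 and HNRNPK stood in the opposite order in the 2 libraries, so their order is not settled. The lowest measured members per length were U2AF1L4, at 2.54 and 2.71 TPM, and the U2AF1 pair, at 6.98 and 3.59 TPM. Most of the pair's sequence is common to both copies. Reads that match both may be missing from its counts, so its rank is not settled.

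The U2AF genes encode the dimer that defines the 3′ splice site. The U2AF1 pair, the small subunit that reads the AG, had 393 counts in siControl and 164 in siCYP4F11, or 24.3 and 12.6 CPM. The siCYP4F11 library was the lower, at 51.7% of control, a log2 ratio of -0.95 (95% counting interval -1.23 to -0.69). After the GC correction the pair was at -1.00234, just past 2-fold. Split by entry, U2AF1 had 312 and 102 counts, a log2 ratio of -1.30 (-1.64 to -0.98), and U2AF1L5 had 81 and 62, a log2 ratio of -0.08 (-0.58 to 0.42). U2AF1 thus held 79.4% of the pair's counts in siControl (exact Clopper-Pearson 95% interval 75.0% to 83.3%) and 62.2% in siCYP4F11 (54.3% to 69.6%), and the intervals do not overlap. Reads from the coding sequence match both copies, and how the counting treated reads that match more than 1 place is not stated in the sources. If such reads were left out, the counts came mainly from around the 12 differing positions, 9 of them only in retained-intron transcripts. The ratio of the pair may then not describe its coding mRNA. Of the 11469 words of 50 bases in U2AF1 transcripts, 94.3% also occur in another gene's transcripts and 650 do not. How many reads of the pair went uncounted is not known from the counts. With other genes the pair shares 0.981% of its words.

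**Figure D2:**
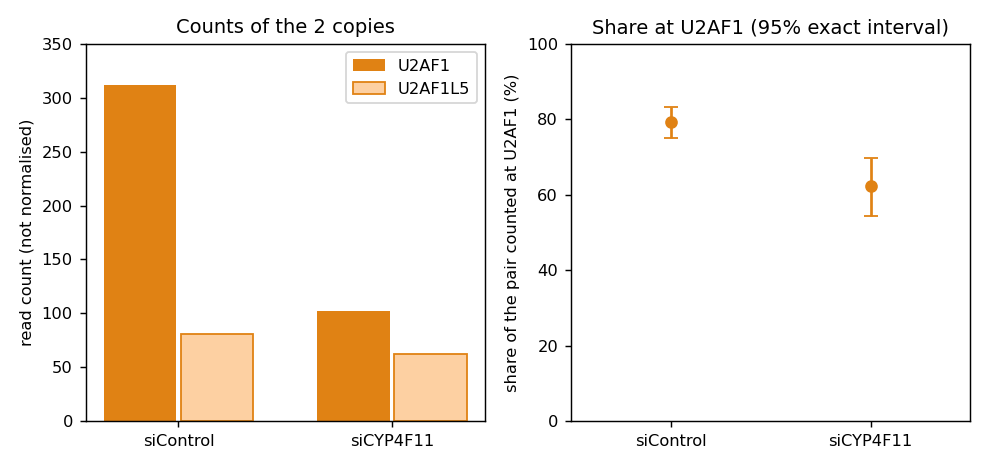
Left, counts of U2AF1 and U2AF1L5 in each library, not normalised and from an axis that starts at 0. Right, the share of the pair's counts placed at U2AF1, in percent, with exact 95% intervals for counting error. U2AF1 goes from 312 to 102 counts and U2AF1L5 from 81 to 62, so the share at U2AF1 is 79.4% in siControl and 62.2% in siCYP4F11.

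U2AF2, the large subunit that binds the pyrimidine tract, was deeply counted and differed much less. It had 4049 counts in siControl and 2853 in siCYP4F11, 251 and 219 CPM, a log2 ratio of -0.20 (-0.27 to -0.13), or -0.08 after the GC correction. U2AF1L4, a related small subunit, had 37 and 32 counts, with log2 ratio 0.10 (-0.63 to 0.82), so its direction was not detectable at this depth. It also shares 18.9% of its words with other genes.

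The SF3A and SF3B subunits, which hold U2 snRNP at the branch site, spread to both sides of 0. Over 9 measured genes the median log2 ratio was -0.02, with 2 higher and 3 lower beyond counting error, against 29.2% and 29.1% of well-expressed genes. SF3B6, a small subunit that contacts the branch site region, had 1335 and 1374 counts, 82.7 and 105 CPM. Its log2 ratio of 0.35 (0.24 to 0.46) was the highest of all measured members, though after the GC correction it was 0.29 and SNRPE was at 0.30. SF3A3 had 1163 and 1133 counts, 72.0 and 86.8 CPM, a log2 ratio of 0.27 (0.15 to 0.39). SF3B5 had 1073 and 923 counts and 0.09 (-0.04 to 0.22). These 3 were the highest of the family, and the first 2 lay beyond counting error.

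On the lower side, SF3B2 had 3489 and 2278 counts, 216 and 174 CPM, a log2 ratio of -0.31 (-0.39 to -0.23). SF3A2 had 915 and 631 counts, at -0.23 (-0.38 to -0.08), and SF3B4 1390 and 997, at -0.17 (-0.29 to -0.05). The GC correction ended both calls, at -0.09 and -0.10. The counting intervals of SF3B2 and SF3B6 do not overlap, nor do those of SF3A2 and SF3A3. These are the lowest and highest of SF3B and of SF3A, picked by the same ratios. Among well-expressed genes 29.2% were higher and 29.1% lower beyond counting error, so such a gap is no result about the complex. SF3B1, the scaffold of the complex, was within counting error at 5082 and 4047 counts, 315 and 310 CPM, a log2 ratio of -0.02 (-0.08 to 0.04). With the GC correction SF3B1 was lower beyond counting error, at -0.11, and SF3B5 higher, at 0.17.

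The SNRP genes encode the Sm ring common to most spliceosomal snRNPs and the proteins specific to U1 and U2. Over 12 measured genes the median log2 ratio was 0.10, with 6 higher, 3 lower and 3 within counting error. The 8 Sm genes had a median of 0.15, with 5 higher and 1 lower. Among well-expressed genes 29.2% were higher and 29.1% lower, and the small number of genes limits any reading of these counts. SNRPE had 1740 and 1748 counts, 108 and 134 CPM, a log2 ratio of 0.31 (0.22 to 0.41). SNRPG had 1705 and 1676 counts, 106 and 128 CPM, and 0.28 (0.18 to 0.38). SNRPD1 had 1691 and 1604 counts and 0.23 (0.13 to 0.33). All 3 encode small Sm proteins of the ring, and after the GC correction SNRPG was at 0.18 and SNRPD1 at 0.14.

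SNRPB, which encodes SmB and had the highest level per length of the family, was at 0.15 (0.09 to 0.21), or 0.24 after the GC correction. SNRPF was at 0.16 (0.06 to 0.26), or -0.00731 and within counting error after the correction. SNRPD2 alone in the ring was lower beyond counting error, with 2623 and 1927 counts and -0.14 (-0.22 to -0.05), a call that the GC correction ended at -0.07. SNRPD3 was within counting error at 0.05 (-0.06 to 0.16). SNRPN, a second SmB-type gene, had 171 and 126 counts and -0.13 (-0.48 to 0.21), and shares exons with SNURF, which had 3 and 17.

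Of the genes specific to U1 and U2, the lowest were the U2 gene SNRPA1 and the U1 gene SNRPA. SNRPA1 had 1071 and 758 counts, with log2 ratio -0.19 (-0.33 to -0.06), and SNRPA 1188 and 863 counts and -0.15 (-0.28 to -0.03). SNRPB2, the U2 partner of SNRPA1, went the other way at 1245 and 1142 counts and 0.18 (0.06 to 0.30). The GC correction ended the calls of SNRPA, at -0.06, and SNRPB2, at 0.05. SNRPC, another U1 gene, was at 0.02 (-0.10 to 0.13).

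SR proteins carry RNA-binding domains and a tail rich in arginine and serine. The median log2 ratio of 11 measured genes was 0.11, with 4 higher, 1 lower and 6 within counting error, against 29.2% and 29.1% of well-expressed genes. SRSF2, which binds exonic enhancers, had 1861 and 1819 counts, 115 and 139 CPM, a log2 ratio of 0.27 (0.18 to 0.37). Of its exonic bases, 36.7% overlap MFSD11 on the other strand, which had 270 and 291 counts, with log2 ratio 0.41. SRSF10 had 2689 and 2518 counts, 167 and 193 CPM, and 0.21 (0.13 to 0.29). SRSF3, the most counted of the family, had 6579 and 6121 counts, 408 and 469 CPM, and 0.20 (0.15 to 0.25). SRSF11 was also above counting error, at 0.15 (0.08 to 0.23). After the GC correction SRSF11 was at 0.004 and no longer beyond counting error, while SRSF10 was at 0.11 and SRSF3 at 0.09.

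SRSF4 was lower beyond counting error, with 1499 and 1054 counts, 92.9 and 80.7 CPM, and a log2 ratio of -0.20 (-0.32 to -0.09). SRSF9 had 2179 and 1657 counts and -0.09 (-0.18 to 0.004), and SRSF6 2909 and 2258 counts and -0.06 (-0.14 to 0.02). Both were within counting error, but with the GC correction SRSF9, at -0.16, and SRSF6, also at -0.16, were lower beyond it. Of SRSF9's exonic bases, 46.2% overlap GATC on the other strand. The founding member SRSF1 had 997 and 869 counts and 0.11 (-0.02 to 0.24). It shares 50.8% of its words with AC015813.2, an overlapping entry with 0 counts in both libraries. SRSF5, SRSF7 and SRSF8 lay between 0.03 and 0.12, within counting error.

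The hnRNP genes hold the most counted members and varied least of the 5 families, with an SD of 0.094 over 22 measured genes. Their median log2 ratio was -0.03, with 2 higher, 9 lower and 11 within counting error, against 29.2% and 29.1% of well-expressed genes. Among the 9 genes of the A/B and D group, which bind short motifs in exons and introns, 0 were higher and 5 lower. HNRNPA1, the most counted of all members, had 28788 and 23415 counts, 1783 and 1794 CPM, a log2 ratio of 0.01 (-0.02 to 0.03). HNRNPA2B1 had 24734 and 19448 counts and -0.04 (-0.07 to -0.01). With the GC correction they were at -0.04 and -0.14, both lower beyond counting error. At such depth a difference of a few hundredths lies outside counting error, so the call says little about size.

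Without that correction the lowest hnRNP genes were HNRNPL, HNRNPM and HNRNPA0. HNRNPL, which binds CA-rich RNA, had 4122 and 2926 counts, 255 and 224 CPM, a log2 ratio of -0.19 (-0.26 to -0.12). HNRNPM had 5283 and 3769 counts and -0.18 (-0.24 to -0.12), and HNRNPA0 3873 and 2784 counts and -0.17 (-0.24 to -0.10). HNRNPA3 was at -0.16, HNRNPU, a nuclear scaffold protein, at -0.14, HNRNPD at -0.12, HNRNPAB at -0.11 and HNRNPUL1 at -0.09, all beyond counting error. The GC correction ended the calls of HNRNPAB, at -0.05, and HNRNPUL1, at -0.009. It put HNRNPA3 at -0.30, HNRNPD at -0.27, HNRNPU at -0.27 and HNRNPM at -0.11. Of HNRNPU's exonic bases, 15.6% overlap COX20 on the other strand, which had 56 and 68 counts.

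The highest hnRNP gene before the correction was HNRNPLL, a relative of HNRNPL, with 1070 and 959 counts, 66.3 and 73.5 CPM, and a log2 ratio of 0.15 (0.02 to 0.28). Corrected for GC content, HNRNPLL was at 0.03 and within counting error. HNRNPA1L2, a copy of HNRNPA1, had 126 and 108 counts and 0.08 (-0.30 to 0.47), or 0.05 corrected, above HNRNPLL. HNRNPH1 had 6242 and 5223 counts and 0.05 (-0.004 to 0.10). HNRNPC, which binds uridine tracts, had 13119 and 10960 counts and 0.05 (0.01 to 0.08). After the GC correction HNRNPC was lower beyond counting error, at -0.0623. The 4 genes of the F and H group, which bind G-rich tracts, lay between 0.001 and 0.05, within counting error. HNRNPH1 passed it at 0.06 both with scaling by total counts and with DESeq2 size factors, but was lower beyond it at -0.10 with the GC correction. HNRNPK, at 0.01, and HNRNPR, at -0.02, were within counting error, and with that correction lower beyond it at -0.05 and -0.18.

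**Figure D3:**
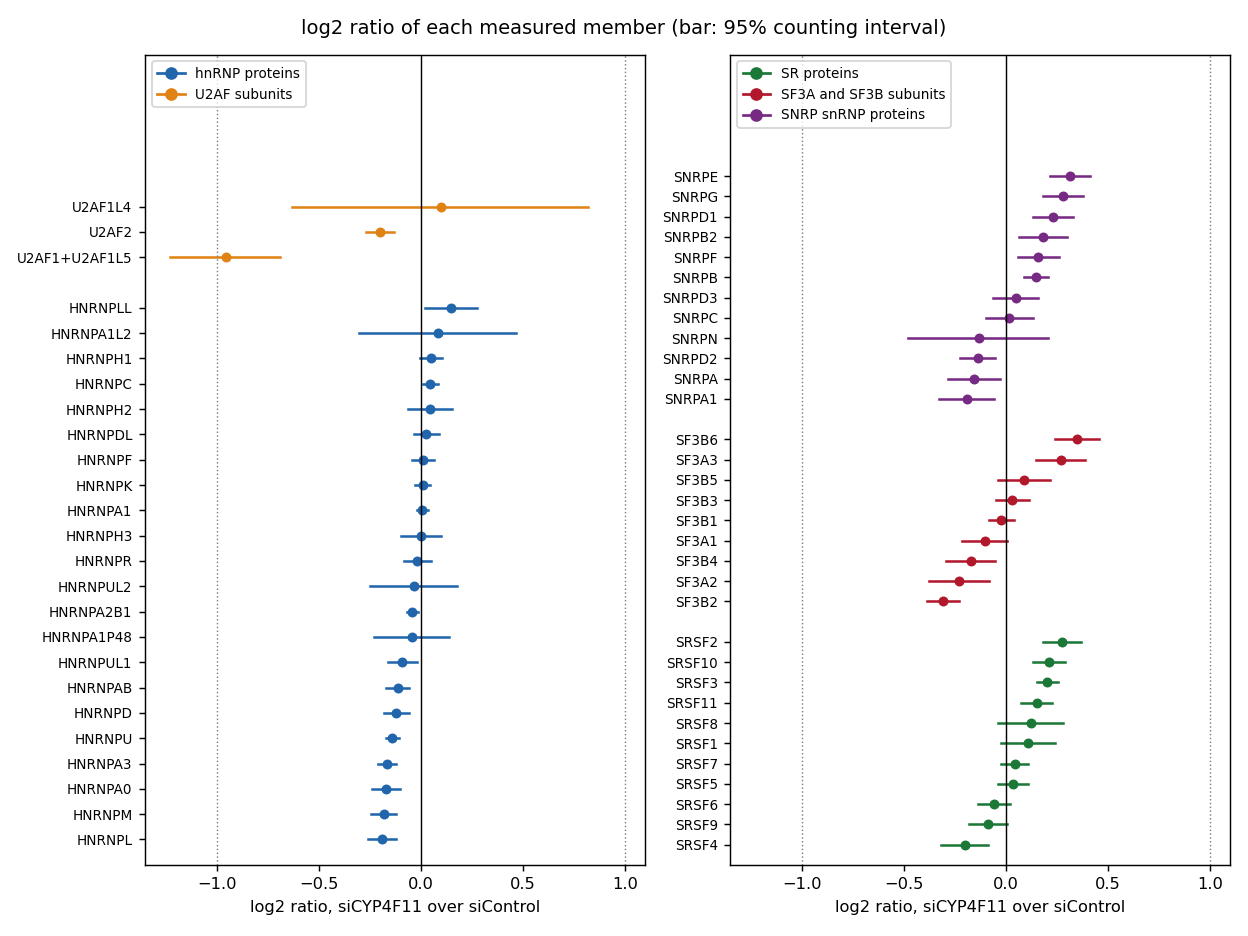
log2 ratio of siCYP4F11 over siControl for each of the 57 measured members (points) with its 95% counting interval (bars), by family. The solid line marks 0 and the dotted lines 2-fold. The U2AF1 pair at -0.95 stands apart, and the other 56 lie between -0.31 (SF3B2) and 0.35 (SF3B6).

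Some members share sequence with other genes, and 14 of the 57 share over 10% of their 50-base words. Besides SRSF1, HNRNPL, HNRNPA1, HNRNPA3, HNRNPA1L2, U2AF1L4, SNRPA1, SNRPN, SNRPD3, SNRPB and SNRPE, named above, these were HNRNPA1P48, HNRNPUL2 and HNRNPH2, and their values are less certain. Many members also have processed pseudogenes, and 182 such rows of 24 parents held 1494 and 1184 counts. Adding them to the parents moved no log2 ratio by more than 0.0199.

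The log2 ratios were related to the GC content of the transcript. The Spearman correlation was -0.26 across 57 members, -0.32 across 13935 measured genes and -0.48 across the 4329 well-expressed genes. Genes share the libraries and are not independent, so these are descriptions. Members were split by GC content into 3 groups of 19. The group with the lowest GC content (35.3% to 40.7%) had a median of 0.05, with 11 above 0 and 8 below. The middle group had 0.01, and the group from 48.5% to 66.6% had -0.10, with 7 above and 12 below. Well-expressed genes of the same GC ranges, members included, had medians of 0.12, 0.03 and -0.09, while the groups of members were not filtered by that level. After a lowess correction on GC content the family medians were 0.004 for SR, -0.06 for hnRNP, -0.07 for SF3A and SF3B, -0.08 for U2AF and 0.05 for SNRP genes. The SR median thus came near 0, and the Sm median was 0.11 after correction. The 8 measured members on chromosome 19 had a median of -0.17 and the 8 on chromosome 1 had 0.07. Chromosomes 15 and 17, with 2 members each, had -0.16 and 0.19. Other genes of chromosome 19 were not compared, and a part of the chromosome was not tested. The part of GC content in single differences was not tested.

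**Figure D4:**
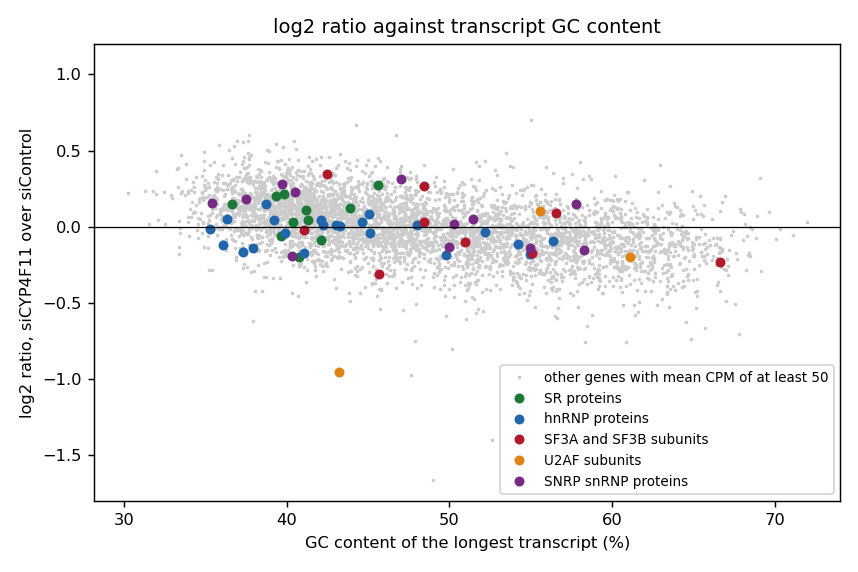
log2 ratio of siCYP4F11 over siControl (y axis) against the GC content of the longest transcript in percent (x axis). Grey points are other well-expressed genes (mean CPM 50 or more) and coloured points are the measured members. Both clouds tilt downward to the right, with a Spearman correlation of -0.26 across the 57 members.

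Promoter sequences were read from RefSeq (GRCh38.p14), where 57 member genes had 80 start sites. The windows run from 250 bases before to 50 after each start, and motifs were counted on both strands. The ETS motif CCGGAAG stood in 26.3% of member windows and 12.9% of 21021 windows of 14896 protein-coding genes of the table. The GC box GGGCGG was in 53.8% and 57.0%, CCAAT in 38.8% and 34.7%, the E-box CACGTG in 12.5% and 8.40%, and TATAAA in 8.75% and 9.26%. The palindromic NRF1 motif was in 0% and 1.49%, and the CRE TGACGTCA in 0% and 2.24%. The median GC content was 62.2% and 62.7%. The background genes were not filtered by level, and a gene with several start sites counts once for each. The shares of members and background are thus not matched. Matches are descriptions of letters and not sites. The 250 bases before the start are shown for the lowest and the highest member by log2 ratio, both on the minus strand, with GC boxes and ETS motifs in capitals. U2AF1 has 4 GC boxes and no ETS motif there, and SF3B6 has 1 GC box and 3 ETS motifs. The starts are those of RefSeq. Both windows partly lie inside the GENCODE genes, whose 5′ ends are at chr21:43107587 and chr2:24076443. A relation of motifs to the log2 ratios was not tested.
U2AF1, chr21:43107571-43107820: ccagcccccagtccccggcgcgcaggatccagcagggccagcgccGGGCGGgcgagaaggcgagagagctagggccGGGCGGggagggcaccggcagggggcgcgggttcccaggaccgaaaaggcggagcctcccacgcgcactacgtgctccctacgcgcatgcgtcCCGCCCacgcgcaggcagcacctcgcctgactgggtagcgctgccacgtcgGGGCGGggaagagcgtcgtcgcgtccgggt
SF3B6, chr2:24076327-24076576: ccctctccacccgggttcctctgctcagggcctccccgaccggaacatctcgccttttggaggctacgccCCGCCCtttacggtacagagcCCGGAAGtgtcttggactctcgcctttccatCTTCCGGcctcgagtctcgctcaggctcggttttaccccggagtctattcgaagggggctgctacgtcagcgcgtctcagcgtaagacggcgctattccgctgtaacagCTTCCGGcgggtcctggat

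Other splicing genes were taken from 9 lists of 195 genes found in the table, of which 186 were measured. Their median log2 ratio was -0.02, and 0 passed the 1.5-fold rule in either direction, against 2.04% and 3.44% of measured genes. By counting error 36 were higher (19.4%), 51 lower (27.4%) and 99 within it. Of all measured genes 18.6% were higher and 19.2% lower, and of well-expressed ones 29.2% and 29.1%. These shares depend on depth, and the median level was 62.5 CPM in the lists and 24.6 CPM over all measured genes. Both backgrounds apply to each list below. The LSM genes encode Sm-like proteins, most of which form rings on U6 RNA or in mRNA decay. Their median was 0.07 over 10, with 9 above 0. Beyond counting error 4 were higher and 0 lower, against the same 2 backgrounds. LSM1 was the highest, with 233 counts in each library and a log2 ratio of 0.31, and LSM10 the lowest at -0.07. Genes of snRNP assembly around the SMN complex had a median of 0.04 over 18, with 3 higher and 3 lower. In that list the helicase gene DDX20 had 407 and 244 counts and -0.43 (-0.67 to -0.20). SMN2 had 469 and 550 counts and 0.54 (0.36 to 0.72), and shares 90.3% of its words with other genes, mainly its copy SMN1, which had 301 and 266 counts.

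Proteins of U1, U5 and the tri-snRNP had a median of -0.03 over 24, with 4 higher and 7 lower. The backgrounds for this list and the next ones are 18.6% and 19.2% of all measured genes and 29.2% and 29.1% of well-expressed ones. SART1, needed for tri-snRNP recruitment, had 1151 and 707 counts and -0.40 (-0.53 to -0.26), and SNRNP27 was at 0.32. Branch site factors outside SF3 and U2AF had a median of -0.14 over 16, with 1 higher (6.25%) and 7 lower (43.8%). SMNDC1 had 814 and 510 counts and -0.37 (-0.53 to -0.21), and PHF5A, a partner of SF3B1, was at 0.13 (-0.01 to 0.28). Factors of the PRP19 complex and the catalytic steps had a median of -0.02 over 31, with 7 higher and 5 lower, from YJU2 at -0.32 to DHX35 at 0.30. Minor spliceosome proteins had a median of -0.002 over 13, with 3 higher and 1 lower, from RNPC3 at -0.30 to ZMAT5 at 0.33, and the intervals of YJU2, RNPC3 and ZMAT5 included 0.

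Exon junction complex and nonsense-mediated decay genes mark spliced mRNA and remove transcripts with early stop codons. Their median was -0.15 over 15, with 1 higher (6.67%) and 9 lower (60%). For each list here the backgrounds are 18.6% and 19.2% of all measured genes and 29.2% and 29.1% of well-expressed ones. SMG8 had 340 and 209 counts and -0.39 (-0.65 to -0.14), and MAGOH, a core subunit of the junction complex, 498 and 482 counts and 0.26 (0.08 to 0.44). SR-related proteins and SR kinases had a median of -0.07 over 29, with 6 higher and 8 lower. Their extremes were RSRP1 at 0.37 (0.17 to 0.57) and the kinase gene SRPK3 at -0.38 (-1.05 to 0.26). Other splicing regulators had a median of -0.02 over 30 measured of 39, with 7 higher (23.3%) and 11 lower (36.7%). CELF1, which binds GU-rich RNA, had 2291 and 1439 counts and -0.36 (-0.46 to -0.27), and CELF2, with 17 and 23 counts, 0.73 (-0.23 to 1.74).

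**Figure D5:**
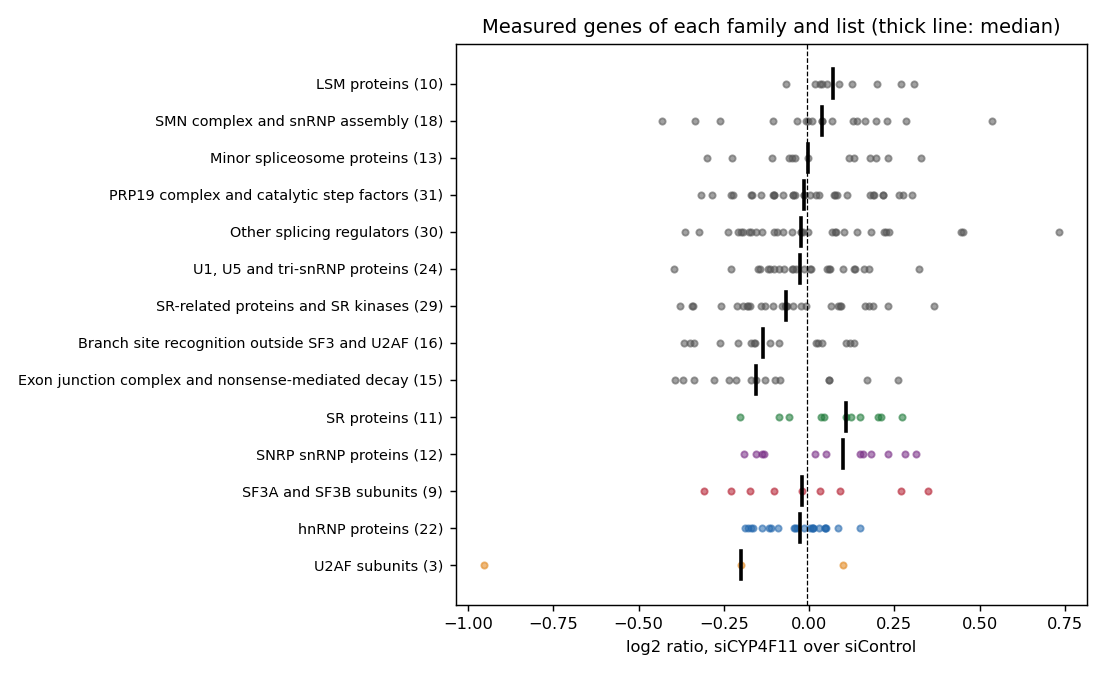
log2 ratio of siCYP4F11 over siControl (x axis) for the measured genes of each family (coloured) and of 9 other splicing lists (grey), with the number of genes in brackets. Thick lines mark medians and the dashed line the median of all measured genes. Family medians run from -0.20 (U2AF) to 0.11 (SR), and list medians from -0.15 (exon junction complex and nonsense-mediated decay) to 0.07 (LSM).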

How the data were processed

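RNA sequencing of 2 libraries was used, 1 per group, with no other per-sample columns. The authors deposited raw read counts per gene, not normalised, with gene lengths in bases, per the file headers. Per the submitters' processing notes the build was GRCh38 and the tools included HISAT2 2.2.1 and featureCounts 2.0.6, besides fastp and edgeR 4.0.16. Poly-A RNA and dUTP stranded libraries are given per the labels' protocols, and no source used here gives the strand setting of the counting, so counts of genes that overlap on opposite strands cannot be told apart.

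Counts were scaled by TMM (factors 0.996 and 1.004). Log2 ratios were taken after adding 0.5 to each count, with a 95% Clopper-Pearson interval of the siCYP4F11 share. edgeR's quasi-likelihood test needs replicates and was not run. Genes averaging 1 CPM or more were kept, and calls needed an interval that excluded 0. Named were CYP4F11, the U2AF1 pair, members called at 1.5-fold, and the 3 highest and 3 lowest members of each family in full. Further members are named with their values, as are the extremes of each list. The members and lists were chosen with earlier results of these data known. Of 197 list entries, 194 matched by symbol, 1 by another symbol and 2 were not found. Gene structure came from GENCODE 29, whose identifiers matched all 58735 rows. The calculations were tested on simulated data. Alternatives were other scalings, added counts, filters, means, a lowess GC correction (span 0.3), and leaving out genes that share reads. Python 3.11.15, numpy 2.4.6, scipy 1.17.1, pandas 2.3.3, statsmodels 0.14.6 and matplotlib 3.10.9 were used.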

Additional observations from a re-analysis of the deposited data

How the results depend on the processing

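No paired analysis was possible because each group had 1 library, and for the same reason no replicate could be left out. Of 208 values under alternatives to 22 main values, 206 kept within the limits set for them. These limits were wide. A change from 14 to 10 members higher beyond counting error was within them, as were U2AF medians of -0.58 and -0.08. Medians that changed sign also counted as kept, so the 206 cannot show that the values are stable. The 2 that moved were the members lower at 2-fold, 1 with the GC correction against 0, and U2AF1 alone at -1.30 against -0.95 for the pair. The first was the U2AF1 pair, which lay just short of 2-fold without the GC correction and just past it with the correction. The second follows from leaving out U2AF1L5. With the GC correction HNRNPC was at -0.0623 and SNRPF at -0.00731, both reversed, the first lower beyond counting error and the second within it. The cause was not tested. The GC correction also ended the calls of 9 other members by counting error and made 8 new ones, and total counts and DESeq2 size factors each made 1, HNRNPH1. Changes of sign, within the limits, came in 5 medians. That of all members was -0.05 with the GC correction and -0.008 as a mean, and SF3A and SF3B were at 0.004 without members with overlapping exons. By their means the PRP19 list was at 0.004, other regulators at 0.01 and minor spliceosome proteins at 0.03, and the last also turned positive under 5 other settings. The U2AF median, of 3 genes, was -0.58 without U2AF1L4 (mean CPM of at least 5, read-sharing or overlapping members left out), -0.35 as a mean and -0.08 with the GC correction. The SNRP median was 0.16 without read-sharing members or those with overlapping exons, and 0.05 with the GC correction. Adding pseudogene counts and leaving out members with overlapping exons were chosen after seeing the data. Depth limits U2AF1L4, SNRPN and HNRNPA1L2 most.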
